A study of Homo sapiens with 4 samples.

Results

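The genes described here encode the proteins of the mitochondrial ribosome and were measured in U2OS, a human osteosarcoma cell line. They were chosen by symbol, as protein-coding genes named MRPL or MRPS followed by a number and at most 1 letter, which gave 73 of the 14884 genes named on the array. Of these, 48 carry an MRPL symbol (large subunit) and 25 an MRPS symbol (small subunit). Where a gene had several probe sets, the one brightest on average across the 4 arrays stood for it. That average chose the probe set and is a description. It weighs both groups equally and does not use the difference between them. MRPL12, MRPS6, MRPS18C and MRPS24 were not analysed here.

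The 2 control arrays came from U2OS cells transfected for 48 hours with a scramble siRNA, and the other 2 from U2OS cells transfected for as long with siRNA against BRPF3. Both siRNAs were given at 50 nM with the same lipid reagent, so transfection itself was common to all groups. BRPF3 is a bromodomain and PHD finger scaffold protein of histone acetyltransferase complexes. U2OS is 1 established line, and the labels call the 2 arrays of a group biological replicates without saying how separate the cultures were. P-values therefore measure only the spread between these arrays.

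The mitochondrial ribosome translates the few messages encoded in mitochondrial DNA, all of which specify subunits of the respiratory chain and ATP synthase. Its RNAs are made inside the organelle, whereas its proteins are encoded in the nucleus, made in the cytosol and imported. The large subunit forms peptide bonds and sits on the inner membrane, and the small subunit binds the message and reads its codons. Many of the proteins have counterparts in the bacterial ribosome, and others exist in mitochondria alone.

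All 73 genes were bright enough to be tested among 10696 genes. Values are log2 units of the deposited table, and differences are BRPF3 siRNA minus control siRNA with limma's moderated standard error (SE, n = 2 arrays per group throughout). A gene is called fallen or risen at a Benjamini-Hochberg adjusted p under 0.05 over all genes tested, in limma's moderated test. BRPF3 itself was not analysed here, so the depletion stated in the labels was not checked. The number of arrays limits the precision. As these are bulk samples, less RNA per cell and fewer cells of a kind cannot be told apart. Of the osteoblast lineage markers RUNX2 (-0.16 ± 0.09), SP7 (-0.18 ± 0.14) and SPP1 (0.26 ± 0.09) were above the brightness limit of 4.59 and did not pass, IBSP (2.60) lay under it, and BGLAP, ALPL, COL1A1, COL1A2 and SPARC were not analysed here. Among markers of other cell types, the summed log2 values of the 3 leukocyte markers on the table were 18.49 to 19.13 on control and 17.98 to 18.11 on BRPF3 siRNA arrays. Of these 3, LAPTM5 (-0.88 ± 0.13) fell, CD68 did not pass and CD14 lay under the limit. The summed values of the 4 endothelial markers were 17.80 to 17.86 and 17.11 to 17.24, with only CLDN5 above the limit. The summed values of the 6 epithelial markers overlapped between the groups (38.73 to 39.26 and 38.77 to 38.82), and 1 of them, KRT18 (-0.49 ± 0.09), fell. EPCAM, of the same list, lay higher on both BRPF3 siRNA arrays (0.27 ± 0.08) and did not pass. The summed values of the 4 mesenchymal markers overlapped (29.44 to 29.56 and 29.37 to 29.46), with S100A4 fallen (-0.66 ± 0.08) and VIM (0.13 ± 0.08) and FN1 (-0.03 ± 0.08) not passed. The part of these differences in the results on ribosomal genes was not tested.

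After BRPF3 siRNA, 16 of the 73 mitochondrial ribosomal protein genes fell and 0 rose, and the other 57 did not pass. The fallen share was 21.9%, beside 9.44% of all genes tested. The group was chosen with earlier results of these data known, so this and the following shares are descriptions and no independent support. For rises the share of all genes tested was 6.32%, and at an unadjusted p under 0.05 limma gave 42 lower and 0 higher members, beside 19.8% of all genes lower and 14.8% higher. Differences were below 0 for 66 of the 73 genes, beside 55.1% of all genes. The median difference over the 73 genes was -0.25, whereas over all genes tested it was -0.032. On 59 of the 73 genes both BRPF3 siRNA arrays lay under both control arrays, beside 35.9% of all genes, and on 3 they lay over both, beside 27.3%. The remaining 11 overlapped, 7 of them with a difference below 0.

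The differences were modest. Of the 16 fallen genes 2 were lower by at least 1.5-fold and 14 by less. Between the lower control array and the higher BRPF3 siRNA array of a fallen gene lay 0.28 to 0.81 log2 units. The 73 genes had a median SD of 0.04 between control arrays and 0.05 between BRPF3 siRNA arrays. The difference between the control arrays had an SD of 0.10 over the members, beside 0.17 over all genes tested. Between the BRPF3 siRNA arrays this SD was 0.17 over the members, beside 0.20 over all genes tested. The 16 calls rest on all 4 arrays, and with 1 array left out calls were lost among the members and among all genes alike. The median difference over the 73 genes then ran from -0.27 to -0.22, beside -0.033 to -0.027 over all genes tested. Testing without a brightness limit left 3 calls (MRPL1, MRPL44 and MRPL45; 4.11% of members, beside 1.5% of all genes fallen), and an intensity trend in limma gave 38, all fallen (52.1%, beside 15.0% of all genes).

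**Figure D1:**
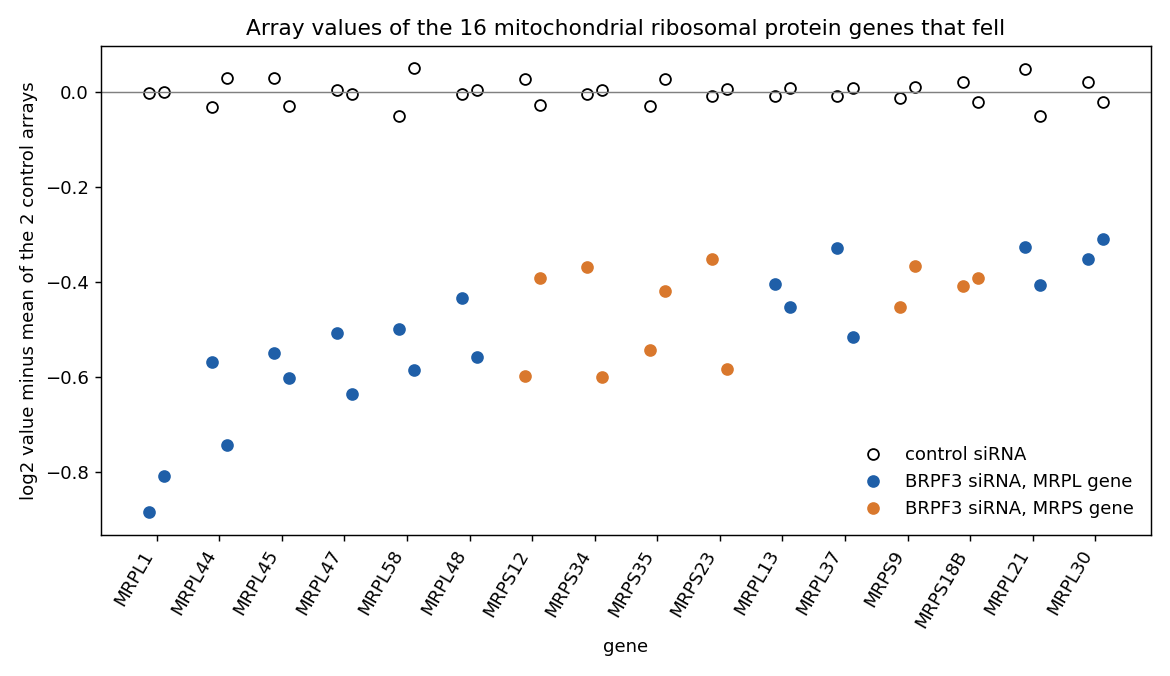
The vertical axis gives each array's log2 value minus the mean of the 2 control arrays for the 16 fallen genes, named along the horizontal axis. Open points are control arrays, and filled points are BRPF3 siRNA arrays, blue for MRPL and orange for MRPS genes. Each pair of filled points lies under its pair of open points, most deeply for MRPL1.

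In the large subunit 10 of 48 genes fell and 0 rose (26 lower and 0 higher at an unadjusted p under 0.05, where 19.8% of all genes were lower). MRPL1, the counterpart of the protein of the bacterial L1 stalk, was the gene with the largest difference of the 73. Its control values were 7.23 and 7.23 and its BRPF3 siRNA values 6.35 and 6.43, so the groups stood well apart. The gene fell by 0.85 ± 0.08, or 1.80-fold (adjusted p = 0.00878, limma). MRPL44, a large subunit protein with an RNase III-like fold, read 9.18 and 9.24 on control and 8.64 and 8.47 on BRPF3 siRNA arrays. It fell 1.57-fold (-0.66 ± 0.09, adjusted p = 0.0156, limma). A second, dim MRPL44 probe set, with a mean of 2.22, differed by 0.08 and lay far under the brightness limit. Averaged with it, the MRPL44 difference was -0.29 and did not pass.

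MRPL45, which lies at the exit of the peptide tunnel and holds the ribosome to the inner membrane, read 10.35 and 10.30 in control and 9.78 and 9.72 in BRPF3 siRNA cells. It fell 1.49-fold (-0.57 ± 0.08, adjusted p = 0.0152, limma). The transcribed pseudogene MRPL45P2 has a probe set of its own, which differed by -0.58, so the share of each copy in these differences is uncertain. MRPL47, the counterpart of bacterial L29, read 9.17 and 9.16 against 8.66 and 8.53 and fell 1.49-fold (-0.57 ± 0.08, adjusted p = 0.0165, limma). No array of one group reached the other for either gene. MRPL58 is a peptidyl-tRNA hydrolase that frees stalled ribosomes and is also built into the large subunit. It read 10.08 and 10.19 in control and 9.64 and 9.55 in BRPF3 siRNA cells and fell 1.46-fold (-0.54 ± 0.09).

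The other fallen MRPL genes were MRPL48, a protein of the central protuberance (-0.50 ± 0.08), MRPL37, found in mitochondria alone (-0.42 ± 0.09), and the counterparts of bacterial L13, L21 and L30. MRPL13 differed by -0.43 ± 0.08, MRPL21 by -0.37 ± 0.08 and MRPL30 by -0.33 ± 0.08, the smallest of the 16. Adjusted p-values of these genes reached 0.0431 for MRPL30. MRPL15 (-0.36 ± 0.09, adjusted p = 0.0545, limma) and MRPL54 (-0.35 ± 0.09, adjusted p = 0.0549, limma) stood just outside the threshold, beside MRPL21 and MRPL30 just inside it.

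MRPL42 shows how replicate spread decided a call. Its control values were 6.74 and 6.73, its BRPF3 siRNA values 5.68 and 6.35. The difference, -0.73 ± 0.21, was the second largest of the 73 and did not pass, since the BRPF3 siRNA arrays differed with an SD of 0.47, the widest of any member. Its transcribed pseudogene MRPL42P5 was too dim to be tested (3.64).

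At the other end of the large subunit lay MRPL35 (0.09 ± 0.08), MRPL27 (0.06 ± 0.08) and MRPL14 (0.05 ± 0.08), of which none passed. MRPL35 read 7.59 and 7.71 on control and 7.76 and 7.73 on BRPF3 siRNA arrays, a gap far smaller than that of any fallen gene. Unlike MRPL35 and MRPL27, MRPL14 had overlapping arrays.

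Of the 25 small subunit genes 6 fell and 0 rose (16 lower and 0 higher at an unadjusted p under 0.05, again beside 19.8% of all genes lower). MRPS12, the counterpart of bacterial S12 at the decoding centre, read 7.68 and 7.63 in control and 7.06 and 7.26 in BRPF3 siRNA cells. It fell 1.41-fold (-0.49 ± 0.10, adjusted p = 0.0299, limma). MRPS35, a protein found in mitochondrial ribosomes alone, read 10.53 and 10.59 against 10.02 and 10.14 and fell 1.40-fold (-0.48 ± 0.09, adjusted p = 0.0240, limma). In neither gene did the groups overlap.

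MRPS34 (9.69 and 9.70 against 9.33 and 9.09) and MRPS23 (9.85 and 9.86 against 9.50 and 9.27), both absent from bacteria, had control arrays that nearly coincided and BRPF3 siRNA arrays further apart. MRPS34 differed by -0.48 ± 0.10 and MRPS23 by -0.47 ± 0.10. MRPS9, the counterpart of bacterial S9, read 9.12 and 9.14 against 8.67 and 8.76 and fell by 0.41 ± 0.08. MRPS18B, 1 of the relatives of bacterial S18 in human mitochondria, fell by 0.40 ± 0.08. It has 7 probe sets in the table with the same values, which therefore count as a single measurement.

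MRPS7, the counterpart of bacterial S7, was the small subunit gene nearest to the threshold from outside (-0.31 ± 0.08, adjusted p = 0.0544, limma), although its arrays were separated (10.49 and 10.58 against 10.24 and 10.21). MRPS16 had the highest difference of all 73 genes, 0.12 ± 0.08, with 9.99 and 10.02 on control and 10.14 and 10.12 on BRPF3 siRNA arrays. It did not pass (adjusted p = 0.309, limma). A second MRPS16 probe set differed by 0.19, with overlapping arrays. MRPS11 (0.03 ± 0.08) and MRPS14 (-0.04 ± 0.09) differed by less than their SE.

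**Figure D2:**
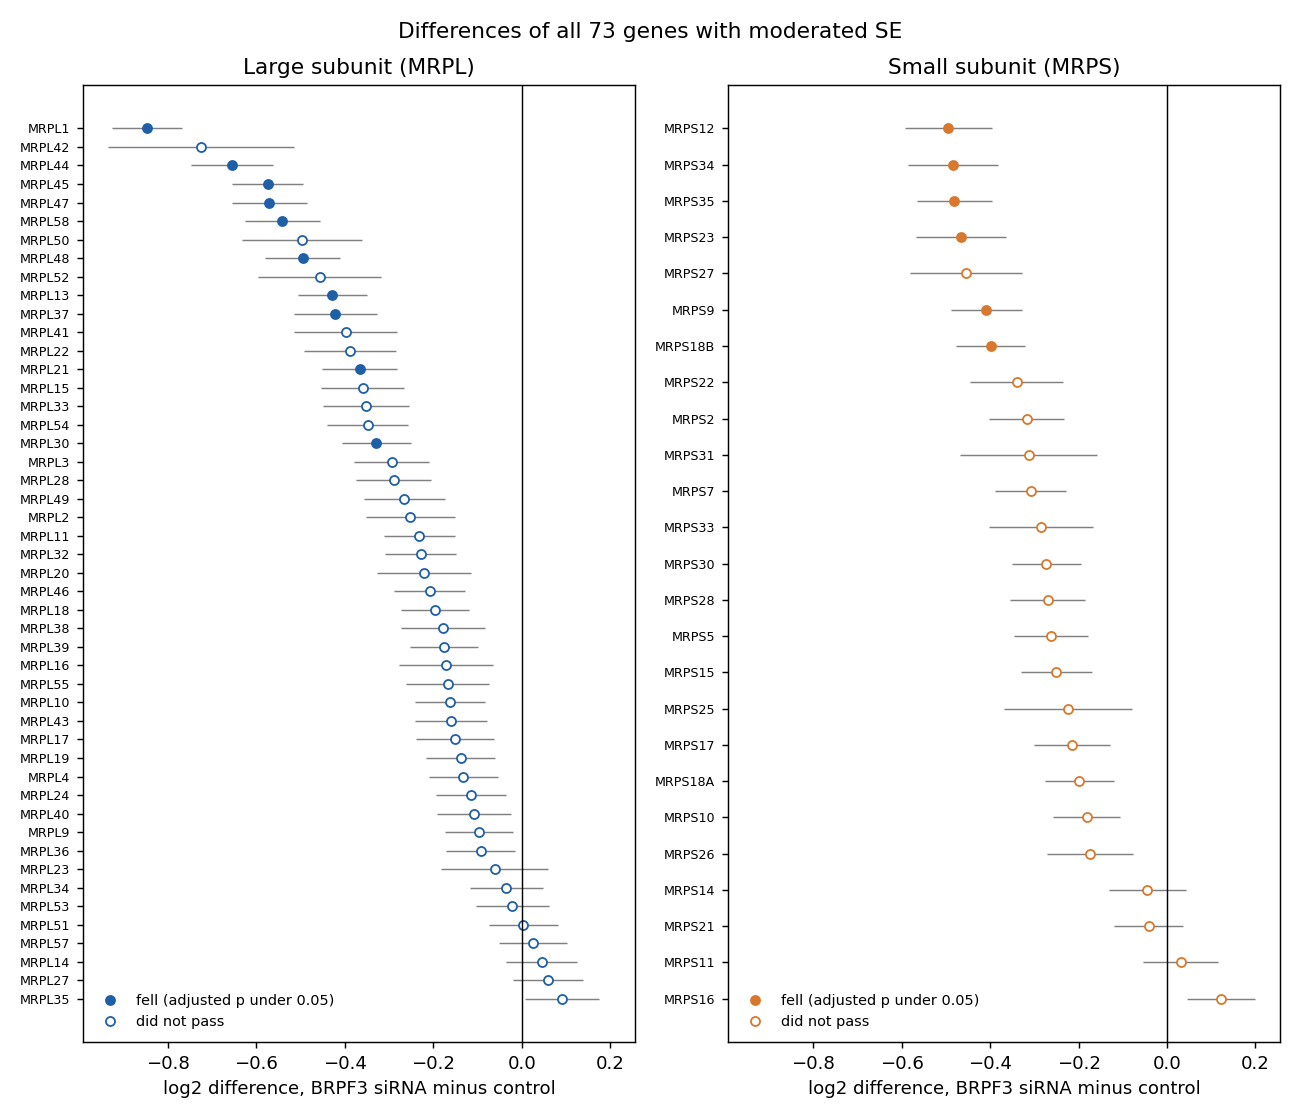
The horizontal axis gives the log2 difference (BRPF3 siRNA minus control) of each of the 73 genes with its moderated SE, ordered within the large (left) and the small subunit (right). Filled points fell and open points did not pass. Points left of the line at 0 number 43 of 48 for MRPL and 23 of 25 for MRPS genes.

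The subunits were set side by side without a test. The fallen share was 20.8% of MRPL and 24.0% of MRPS genes. The median difference was -0.23 over the MRPL genes, from -0.85 to 0.09, and -0.27 over the MRPS genes, from -0.49 to 0.12. Per array, the median MRPL value was 8.04 and 8.04 in control and 7.83 and 7.86 in BRPF3 siRNA cells, and the median MRPS value was 9.18 and 9.14 against 8.89 and 8.99. The medians of the subunits' differences were 0.05 log2 units apart. A related quantity, the distance between the median MRPL and the median MRPS value of each array, had an SD of 0.04 between replicates. With control replicate 1 left out, the medians of the differences were 0.0017 apart. Leaving out BRPF3 siRNA replicate 1 turned the sign (-0.00018), so no order of the subunits is given. The share of genes with separated lower arrays was 81.2% for MRPL and 80.0% for MRPS genes.

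Symbol and place do not match for MRPS18A and MRPS30, which are proteins of the large subunit in the human ribosome. MRPS30 differed by -0.27 ± 0.08 and MRPS18A by -0.20 ± 0.08, and neither passed. With both counted as large subunit, the medians were -0.23 over 50 genes and -0.28 over 23. The mitoribosome proteins CHCHD1, DAP3 and PTCD3 have names of another kind and were not among the 73. CHCHD1 (7.61 and 7.63 against 7.10 and 7.32) fell by 0.40 ± 0.10, while DAP3, the GTP-binding protein of the small subunit, differed by -0.26 ± 0.08 and PTCD3, an RNA-binding repeat protein, by -0.14 ± 0.08, and neither passed.

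Grouped by counterparts in the bacterial ribosome, 8 of the 43 genes with a counterpart fell (18.6%), and 8 of the 30 genes without one (26.7%). Their median differences were -0.22 and -0.33. Among MRPL genes the medians were -0.21 over 28 and -0.31 over 20, and among MRPS genes -0.25 over 15 and -0.33 over 10. Of the 30 genes without a counterpart 28 differed by less than 0, and of the 43 with a counterpart 38 did. The grouping was made after the differences were known, and the distance between the groups was not tested.

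Probe set brightness depends on the probes as well as on the transcript, so levels are not compared between genes. The brightest probe sets of the small subunit were those of MRPS15 (mean 10.96), MRPS21 (10.85) and MRPS7 (10.38), and of the large subunit those of MRPL3 (10.51), MRPL37 (10.32) and MRPL45 (10.04). The dimmest were MRPL52 (5.08), MRPL23 (5.32) and MRPL32 (5.77), and MRPS31 (6.13), MRPS33 (6.02) and MRPS27 (6.15). Fallen genes were found at means from 6.81 (MRPL1) to 10.32 (MRPS35). MRPL3 (-0.29 ± 0.09), MRPS15 (-0.25 ± 0.08) and MRPS21 (-0.04 ± 0.08) did not pass. Among the dim genes MRPL52 (-0.46 ± 0.14), MRPS27 (-0.45 ± 0.13), MRPS31 (-0.31 ± 0.15), MRPS33 (-0.28 ± 0.12), MRPL32 (-0.23 ± 0.08) and MRPL23 (-0.06 ± 0.12) did not pass either. Over the 6407 genes at or above the 75th percentile of all probe sets, the median difference was -0.05, and over the 64 members among them -0.23.

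**Figure D3:**
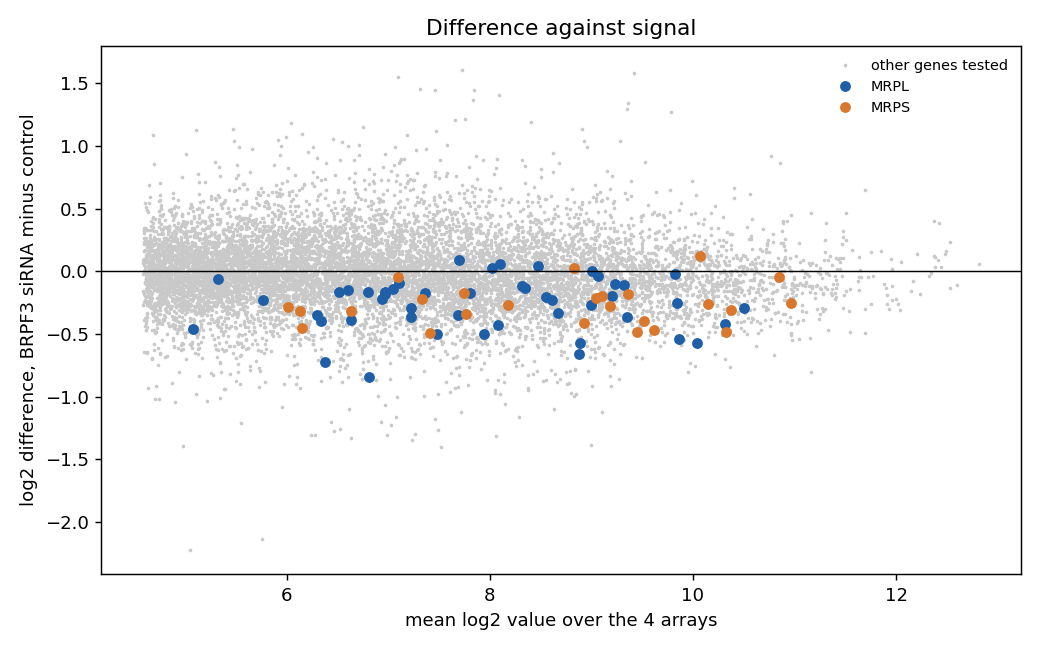
The horizontal axis gives the mean log2 value over the 4 arrays and the vertical axis the log2 difference (BRPF3 siRNA minus control). Grey points are the other genes tested, blue points MRPL and orange points MRPS genes. The members lie mostly under 0 from the dim MRPL52 (5.08) to the bright MRPS15 (10.96).

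Other parts of the mitochondrial gene expression machinery were read from the same fit. Of 25 tested genes for assembly of the mitochondrial ribosome 4 fell and 0 rose, with a median of -0.18. At an unadjusted p under 0.05 limma gave 8 lower and 0 higher. Of all genes tested 9.44% fell and 6.32% rose, and at an unadjusted p under 0.05 limma gave 19.8% lower and 14.8% higher. These shares of all genes stand beside the counts of every list that follows. METTL15, a methyltransferase of the small subunit RNA, read 6.88 and 6.91 against 5.95 and 6.34 and fell 1.68-fold (-0.75 ± 0.14). MRM1, which methylates the large subunit RNA (-0.50 ± 0.09), the GTPase NOA1 (-0.41 ± 0.08) and MTRES1 (-0.38 ± 0.09) fell as well. MTG1 (0.19 ± 0.08) and FASTK (0.17 ± 0.11) had the highest differences of the list and did not pass.

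Among 15 translation factors and helpers 2 fell and 0 rose (6 lower and 0 higher at an unadjusted p under 0.05), with a median of -0.10. These were the partners SLIRP (-0.39 ± 0.08) and LRPPRC (-0.32 ± 0.08), which bind and stabilise mitochondrial messages. MTFMT, the formyltransferase of the initiator tRNA (0.17 ± 0.09), and the recycling factor MRRF (0.11 ± 0.11) did not pass. Of 11 genes of mitochondrial transcription and RNA handling 4 fell and 0 rose (8 lower and 0 higher at an unadjusted p under 0.05), with a median of -0.27. POLRMT, the mitochondrial RNA polymerase, read 8.22 and 8.05 against 7.72 and 7.71 (-0.42 ± 0.09). PTCD2 (-0.51 ± 0.11), TRMT10C, a subunit of mitochondrial RNase P (-0.44 ± 0.10), and FASTKD1 (-0.35 ± 0.08) were the others. HSD17B10 (-0.14 ± 0.11) and the helicase TWNK (0.0036 ± 0.08) had the highest differences of that list.

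Of respiratory chain and ATP synthase genes, 23 were tested, 6 of complex III, 14 of complex IV and 3 of complex V. The genes of complex V were ATP5MJ, ATP5MK and ATP5IF1, so most of ATP synthase is not covered. The median over the 23 genes was -0.10. Of the 23 genes 1 fell (4.35%, beside 9.44% of all genes) and 0 rose. At an unadjusted p under 0.05 limma gave 4 lower and 1 higher, beside 19.8% and 14.8% of all genes. The fallen gene was COX6C of cytochrome oxidase (-0.43 ± 0.10), whose BRPF3 siRNA mean of 4.63 lay close to the brightness limit. COX7B (-0.41 ± 0.11), COX8A (0.28 ± 0.11) and COX6A2 (0.14 ± 0.19) did not pass. Genes of complexes I and II were not analysed here. Of 9 mitochondrial proteases and chaperones HSPD1, the matrix chaperonin, fell (-0.36 ± 0.08) and 0 rose (3 lower and 0 higher at an unadjusted p under 0.05). The peptidase OMA1 (-0.28 ± 0.08), HTRA2 (-0.09 ± 0.08) and YME1L1 (-0.09 ± 0.08) did not pass, and the median was -0.16.

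The proteins of the cytosolic ribosome offer the nearest comparison by function, and their genes were taken by symbol. The list therefore also holds genes named as like a ribosomal protein, among them RPL3L, RPL7L1, RPL10L and RPL39L. Of 52 tested genes 4 fell (7.69%, beside 9.44% of all genes) and 0 rose, with a median of -0.08, from -0.53 to 0.24. At an unadjusted p under 0.05 limma gave 8 lower and 1 higher, beside 19.8% and 14.8% of all genes. The fallen genes were RPL26L1 (-0.50 ± 0.09), RPL22L1 (-0.46 ± 0.10), RPS26 (-0.41 ± 0.10) and RPL29 (-0.35 ± 0.09), of which the first pair are paralogues of the constitutive RPL26 and RPL22. RPL3L (0.24 ± 0.08) and RPS19 (0.16 ± 0.08) were the highest. Cytosolic ribosomal protein genes have many processed copies, so their values are uncertain. The difference between the cytosolic and the mitochondrial genes was not tested.

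**Figure D4:**
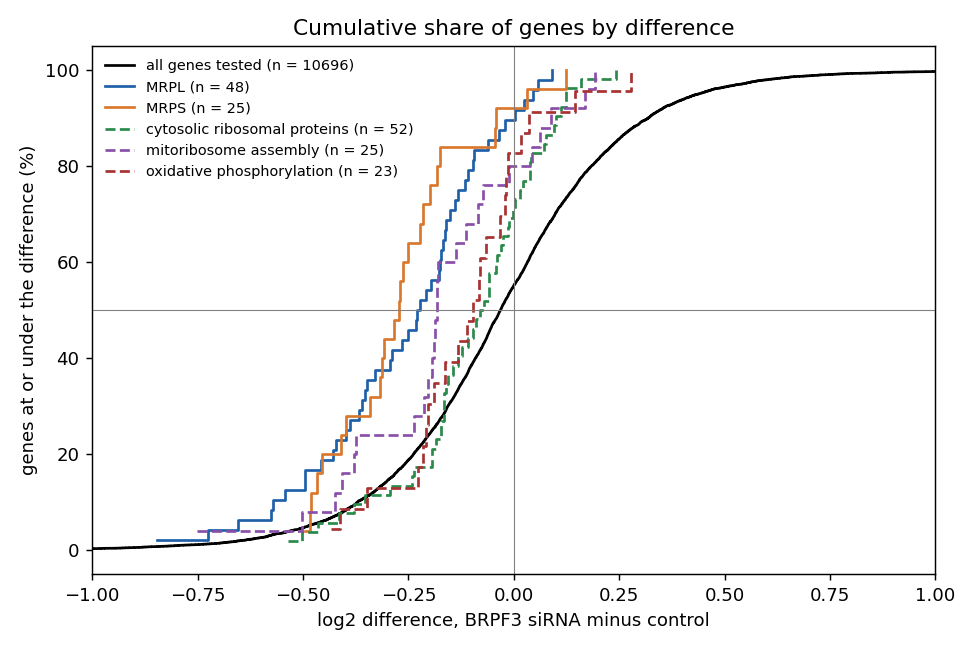
The vertical axis gives the percentage of genes at or under the log2 difference (BRPF3 siRNA minus control) on the horizontal axis. Curves stand for all genes tested, MRPL, MRPS, cytosolic ribosomal protein, mitoribosome assembly and oxidative phosphorylation genes, the last of complexes III, IV and V alone. The curves of MRPL and MRPS cross the middle at -0.23 and -0.27, that of the cytosolic ribosomal proteins at -0.08 and that of all genes at -0.032.

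Of 12 listed regulators of nuclear genes for mitochondrial proteins, 5 were tested, and 0 fell and 0 rose in limma (1 lower and 0 higher at an unadjusted p under 0.05). The rest of the list, GABPA among them, was not analysed here. YY1 read 7.19 and 7.32 against 7.05 and 6.96 (-0.25 ± 0.09, adjusted p = 0.110, limma), and NRF1 read 7.41 and 7.37 against 6.92 and 7.29 (-0.28 ± 0.13, adjusted p = 0.194, limma). Their arrays were separated, with NRF1 uneven between the BRPF3 siRNA arrays. SP1 (0.03 ± 0.08) and MYC (0.09 ± 0.09) did not pass.

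Promoters of these genes typically lack a TATA box. Those of 4 fallen genes are shown, chosen by the size of their differences. Each sequence is the 250 bases before the annotated start from RefSeq (GRCh38.p14), written 5′ to 3′ on the gene's strand: MRPL1 at chr4:77862580-77862829 (plus strand), MRPL44 at chr2:223957213-223957462 (plus strand), MRPL45 at chr17:38296918-38297167 (plus strand) and MRPL47 at chr3:179604639-179604888 (minus strand). Capitals mark matches on either strand to GCGCA-any base-GCGC (the NRF1 core), CCGGAAG (the core bound by ETS factors such as GABP), AANATGGC (YY1) or CCAAT.
MRPL1: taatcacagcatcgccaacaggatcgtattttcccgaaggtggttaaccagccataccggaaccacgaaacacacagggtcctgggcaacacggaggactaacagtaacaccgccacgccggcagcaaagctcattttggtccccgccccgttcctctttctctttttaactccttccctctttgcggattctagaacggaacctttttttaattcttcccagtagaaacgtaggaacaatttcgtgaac
MRPL44: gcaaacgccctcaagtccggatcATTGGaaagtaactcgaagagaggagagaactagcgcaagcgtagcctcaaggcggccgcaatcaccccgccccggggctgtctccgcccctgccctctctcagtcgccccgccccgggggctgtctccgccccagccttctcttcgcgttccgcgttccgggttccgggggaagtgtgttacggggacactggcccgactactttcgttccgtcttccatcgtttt
MRPL45: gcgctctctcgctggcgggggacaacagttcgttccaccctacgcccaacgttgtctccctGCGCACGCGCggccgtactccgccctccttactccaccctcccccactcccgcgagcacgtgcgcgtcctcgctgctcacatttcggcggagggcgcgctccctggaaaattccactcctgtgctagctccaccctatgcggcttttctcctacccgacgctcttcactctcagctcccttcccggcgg
MRPL47: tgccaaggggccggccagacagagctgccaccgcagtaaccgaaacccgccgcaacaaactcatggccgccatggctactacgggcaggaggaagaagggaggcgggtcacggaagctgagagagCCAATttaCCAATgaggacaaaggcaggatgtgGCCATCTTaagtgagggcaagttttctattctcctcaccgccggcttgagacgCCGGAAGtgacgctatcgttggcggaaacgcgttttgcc
MRPL47 held 4 matches, to CCGGAAG at 39 to 33 bases before the start, to AANATGGC at 92 to 85 bases and to CCAAT at 125 to 121 and 117 to 113 bases. MRPL45 held GCGCACGCGC at 189 to 180 bases before the start, MRPL44 a distant CCAAT, and MRPL1 no match in these 250 bases. Within the 50 bases after the start, MRPL1, MRPL45 and MRPL47 each held AANATGGC, beginning at base 17, 14 and 12. These letters also fit the surroundings of a start codon.

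Windows of 300 bases, 250 before and 50 after the start, were found for 65 of the 73 genes. CCGGAAG was present in 28 of them (43.1%), beside 10.7% of 27305 promoters and 18.0% of those of tested protein-coding genes. AANATGGC was present in 24 (36.9%), beside 6.82% and 9.58%, and in 19 of the 24 every match lay after the start. The NRF1 core was present in 8 (12.3%), beside 6.28% and 10.5%, and CCAAT in 19 (29.2%), beside 35.7% and 36.1%. CCGGAAG was present in 41.5% of MRPL and 45.8% of MRPS windows and AANATGGC in 36.6% and 37.5%. In the windows of the cytosolic ribosomal protein genes the shares were 29.8% for CCGGAAG and 19.1% for AANATGGC.

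Of the 24 genes with AANATGGC 7 fell, with a median difference of -0.35, and of the 41 without it 7 fell, with a median of -0.22. For CCGGAAG the counts were 7 of 28 (median -0.29) and 7 of 37 (median -0.23), and for the NRF1 core 3 of 8 (median -0.22) and 11 of 57 (median -0.25). These are descriptions of letters in a window and not of binding, and the differences between the medians were not tested.

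A head-to-head neighbour, transcribed from the other strand with its start within 1000 bases upstream, was found for 24 of the 65 genes. The neighbour was itself tested for 12 of them, counting the pair MRPL46 and MRPS11 from both sides. Of these 12 neighbours 1 fell and 0 rose, and 8 had differences below 0. Over all genes tested 9.44% fell, 6.32% rose and 55.1% had differences below 0. The fallen neighbour was PTCD2, whose start lies 133 bases from that of MRPS27, itself at -0.45 ± 0.13. Opposite the fallen MRPL37, at 137 bases, CYB5RL differed by 0.19 ± 0.11 and did not pass. MRPL46 (-0.21 ± 0.08) and MRPS11 (0.03 ± 0.08), with 320 bases between their starts, did not pass, nor did FAU (-0.19 ± 0.13), 49 bases from MRPL49.

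**Figure D5:**
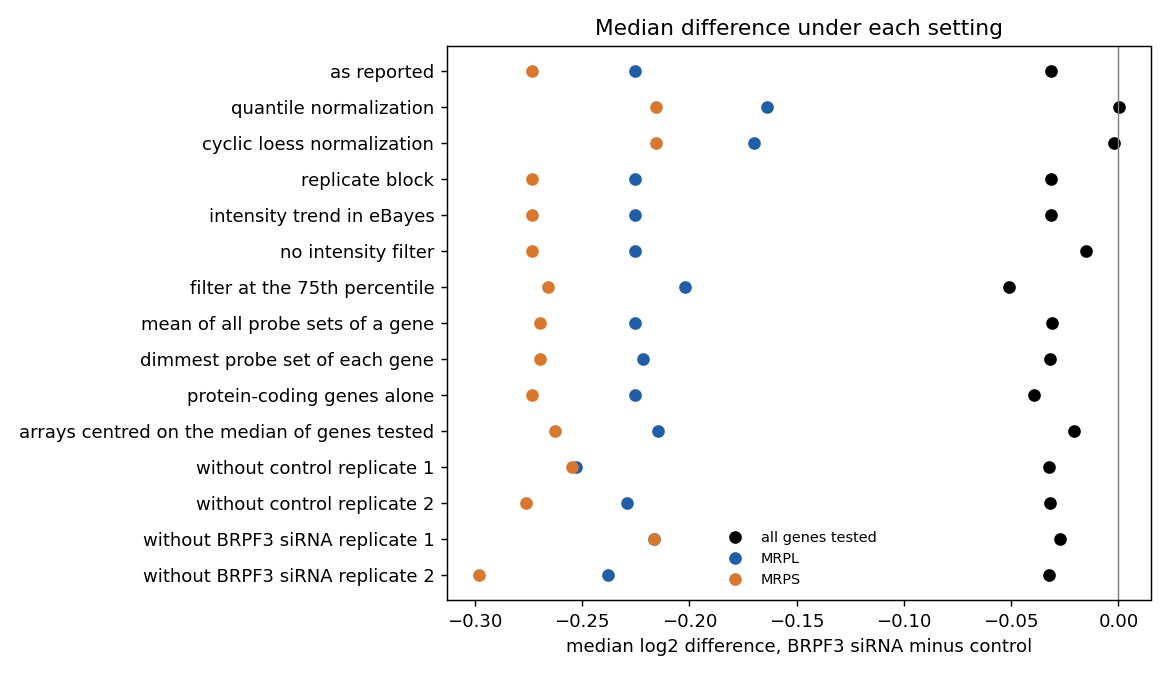
Points give the median log2 difference (BRPF3 siRNA minus control, horizontal axis) of all genes tested (black), MRPL (blue) and MRPS genes (orange) under each setting on the vertical axis. The MRPL medians lie between -0.25 and -0.16 and the MRPS medians between -0.30 and -0.22, left of the medians of all genes. After quantile normalization 11 of the 16 calls were kept and the median over the 73 genes was -0.20, beside 3.6e-05 over all genes.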

How the data were processed

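Total RNA of 4 samples was hybridised to Affymetrix whole-transcript arrays. The log2 values deposited by the authors were made with RMA, per the submitters' processing notes (version and settings not given in the sources used here). They cover 53617 probe sets, had no identical arrays and were used as deposited. Normalization between arrays removes shifts common to all transcripts. The platform annotation gave 1 symbol to 16098 probe sets (14884 genes), several to 0 and none to the rest; RefSeq (GRCh38.p14) changed 0 symbols. Per gene the probe set with the highest mean was taken. A brightness limit at 4.59, the median over the table's probe sets, kept 10696 genes.

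The test was that of limma 3.58.1, run in R 4.3.3 (lmFit, eBayes, two-sided, group as factor, 2 residual and 3.81 prior degrees of freedom, Benjamini-Hochberg). An exact permutation test of 2 against 2 arrays cannot approach 0.05. The procedure was tested on simulated arrays with independent errors and no array effects. A minimum recovery was required there only for 2-fold changes, larger than that of any fallen member. The simulation therefore does not bear on the recovery of smaller changes. Lists are described by counts and medians without a test. Members and lists were chosen with earlier results of these data known. Members named were those called, the 3 extreme by moderated t and by brightness at either end of each subunit, the 3 nearest the threshold on either side, and those with discordant probe sets; of other lists the 2 highest and 2 lowest. Further genes were named after their values were seen.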

Additional observations from a re-analysis of the deposited data

Results flagged for a closer look

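MRPL23-AS1, a noncoding RNA from the other strand of the MRPL23 locus and no member of the gene group, had both BRPF3 siRNA arrays (5.17 and 5.11) over both control arrays (4.83 and 4.97). Such separation was seen for 27.3% of all genes tested. The RNA drew attention as signal above the controls outside the gene group, and it was tested in the same fit. The difference was 0.24 ± 0.09, which did not pass limma's test (adjusted p = 0.116). Other related noncoding probe sets, MRPL20-AS1 (-0.28), MRPL45P2 (-0.58) and MRPS31P5 (-0.26), lay below their controls.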

How the results depend on the processing

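The centring of arrays and the placing of MRPS18A and MRPS30 were chosen after seeing the data. The 16 calls became 38 with an intensity trend, 3 without a brightness limit (more and dimmer genes tested) and 31 of 64 with a limit at the 75th percentile (48.4% fallen, beside 20.7% of the 6407 genes tested there), and over all genes 1686 became 2645 with the trend and 409 without the limit. With 1 array left out, 0 to 10 members and 0 to 791 genes were called; this takes a lone array to be as variable as the other group's pair. The MRPL median was -0.16 after quantile and -0.17 after cyclic loess normalization, -0.20 with the limit at the 75th percentile and -0.25 to -0.22 with 1 array left out. The MRPS median was -0.22 after either normalization and -0.30 to -0.22 with 1 array left out, and the distance between the medians then ran from -0.00018 to 0.060 (0.064 with the limit at the 75th percentile). Both normalizations ended the calls of MRPS34, MRPS23, MRPL37, MRPL21 and MRPL30 and turned MRPS21 from -0.041 to 0.053, and the fallen share of all calls went from 59.9% to 48.4% and 49.0%; the cause was not tested. With 1 array left out, uncalled genes near 0 changed sign, MRPS11 running from -0.025 to 0.086, MRPS14 from -0.12 to 0.030 and MRPL23 from -0.21 to 0.089. Replicate numbers were not taken as pairs: same-numbered deviations correlated with r = 0.14 across genes, which are not independent, in 2 pairs, and with the replicate block 18 members fell, 15 of them among the 16. Of 468 values of 34 named members 373 kept direction and call, and these include members uncalled from the start that stayed uncalled. Another 74 lost the call, all of them values of the 16 fallen genes, 15 gained a call and 6 changed direction.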
